A study of Homo sapiens with 6 samples.

Results

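Immediate-early mRNAs are transcribed within minutes of a growth or stress signal and are then destroyed quickly, so that their level in a cell follows recent signalling. FOS, JUN, JUNB and JUND encode subunits of the dimeric transcription factor AP-1, EGR1 a zinc-finger transcription factor, IER2 and IER5 small regulators induced with them, MYC a growth-promoting transcription factor, ATF3 a stress-induced bZIP factor and TXNIP an alpha-arrestin that binds thioredoxin and restrains glucose uptake. Many such mRNAs carry AU-rich elements in the 3' UTR, in which the pentamer AUUUA recurs and which recruit decay factors such as the ZFP36 proteins. These 10 mRNAs were chosen by name, with earlier results of these data known, so the shares set beside all genes below only describe this list. All 10 were found among the 60676 gene IDs of the count table. They also passed the filter on low counts that left 15546 genes for testing.

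The study compared RNA recovered on 2 baits, GST-Ferry and GST, with 3 libraries each. GST-Ferry is FERRY, a complex of 5 subunits that binds the GTPase RAB5 on early endosomes, carrying glutathione S-transferase, and GST is the tag without the complex. Each bait sat on glutathione resin while a lysate of HEK 293 was passed over it, a cell line derived from human embryonic kidney and cultured in suspension, and ribosomal RNA was removed from the recovered RNA before sequencing. The table's columns are headed sample and control with a number, and these words were read as GST-Ferry and GST, number for number, which is an assumption. Input RNA was not analysed here, and each level is a share of its own library, so that a lower share of an mRNA and a higher share of all others cannot be told apart.

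The GST-Ferry libraries held 2454538 to 6532665 counts and the GST libraries 7390346 to 10466520, and the 10 mRNAs together took 0.107% to 0.149% of counts with GST-Ferry and 0.102% to 0.137% with GST. All 10 markers listed for HEK 293 were detected, with summed levels of 1535 to 2233 CPM (counts scaled to a library of 1000000) with GST-Ferry and 1048 to 1224 CPM with GST. The fibroblast markers COL1A1 and DCN summed to 51.7 to 59.6 CPM with GST-Ferry and 19.2 to 47.6 CPM with GST, nearly all of it COL1A1, and their part in the results was not tested. The 4 blood, 2 liver and 2 endothelial markers each summed to under 2 CPM in every library. Of the 5 bait subunit mRNAs, PPP1R21 had 798 to 37618 CPM with GST-Ferry and 39.4 to 44.6 CPM with GST. C12orf4 and TBCK were also higher with GST-Ferry, with a log2 fold change over GST of 6.73 and 5.3. GATD1 had 135 ± 25.8 CPM (± SD) with GST-Ferry and 124 ± 31.2 CPM with GST. CRYZL1 was lower with GST-Ferry, with 63.3 ± 14.8 CPM against 88.6 ± 13.8 CPM with GST. GST 3 stood apart from the other libraries, as described with the GC content below, and was the GST library with the lowest share of counts in protein-coding genes, 87% against 90.6% and 91.1%.

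The number and density of AUUUA pentamers in the 3' UTR differ widely among the 10 mRNAs. The 30-base stretch of the 3' UTR with the most ATTTA pentamers (DNA letters, sense strand, overlapping copies counted) is shown for 6 of them, since it is the sequence feature by which short-lived mRNAs are best known, with each pentamer in capitals:
IER5: tcctttATTTATTTATTTATTTAattataa
FOS: tgtgtttttaATTTATTTAttaagatggat
JUN: tccagaaaggatATTTAagaaaatacaata
JUNB: atatatttgtgtATTTAacagggaggggaa
ATF3: ctcaactccaggATTTAggccttaacacac
TXNIP: ggagaagagccaATTTAacaaactaggaag

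In GRCh38, as GENCODE 29 places these transcripts, the IER5 stretch lies at chr1:181092449-181092478 (plus strand) and holds 4 overlapping pentamers. The FOS stretch lies at chr14:75282058-75282087 (plus strand) and holds 2. The stretches of JUN (chr1:58781335-58781364, minus strand), JUNB (chr19:12793060-12793089, plus strand), ATF3 (chr1:212619765-212619794, plus strand) and TXNIP (chr1:145993410-145993439, minus strand) hold 1 each. JUN, JUNB and ATF3 have other stretches with 1 pentamer, and the first along the 3' UTR is shown. Among 19658 annotated 3' UTRs of protein-coding genes, 0.59% have a 30-base stretch with at least 4 pentamers, 20.8% one with at least 2 and 63.9% one with at least 1. Over the whole 3' UTR, IER5 has 10 pentamers, FOS 5, MYC 4, JUN and ATF3 3 each, JUNB 2 and EGR1, JUND and TXNIP 1 each. IER2 has 0 in its 3' UTR of 1050 bases.

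None of the 10 mRNAs passed the test between the baits, and 9 of the 10 had a log2 fold change of GST-Ferry over GST above 0, beside 47.8% of all genes tested. The fold changes ran from -0.16 for TXNIP to 1.01 for JUNB, with a median of 0.45, beside a median of -0.03 over all 15546 genes tested. Of 12859 tested protein-coding genes 6682 had a log2 fold change above 0, with a median of 0.02. Over all genes 0.624% were called in either direction by edgeR's quasi-likelihood test at a Benjamini-Hochberg adjusted p under 0.05, 0.592% as higher and 0.0322% as lower with GST-Ferry, so a count of 0 among 10 lies near that background. At an unadjusted p under 0.05 there were 2 members, JUNB and MYC, beside 19.3% of all genes. Limma-voom called 0 of the 10, beside 0.0901% of all genes. DESeq2 called 0 of the 7 members to which it gave an adjusted p, beside 6.28% of such genes, and gave none to FOS, EGR1 and JUNB, so that these 3 could not be called. Limma-voom with library weights called 2 of the 10, JUNB and MYC, beside 16.4% of all genes.

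The levels of the 10 mRNAs fell into 4 steps. Per kilobase of transcript, TXNIP (131 ± 67.9 CPM per kb with GST-Ferry and 146 ± 77.7 with GST, SD, n = 3 each), JUN (127 ± 6.02 and 92.5 ± 21.1) and MYC (97.1 ± 27.1 and 65.1 ± 11.4) were the most abundant. ATF3, JUND, IER2 and IER5 followed, from 33.3 ± 5.82 CPM per kb for ATF3 to 19.6 ± 1.57 for IER5 with GST-Ferry, and from 26 ± 1.84 to 17.1 ± 2.54 with GST. JUNB lay lower at 5.41 ± 0.697 and 2.63 ± 0.639 CPM per kb, and EGR1 and FOS lowest, at 1.1 ± 0.189 and 0.786 ± 0.042 with GST-Ferry and 0.809 ± 0.258 and 0.737 ± 0.0662 with GST. Within each step, neighbours had overlapping ranges of mean ± SD with at least 1 of the baits, and TXNIP varied the most. Averaged over the 6 libraries, TXNIP, JUN and MYC stood above 97.8%, 97.1% and 95.4% of tested protein-coding genes on this scale, and FOS above 4.15%.

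**Figure D1:**
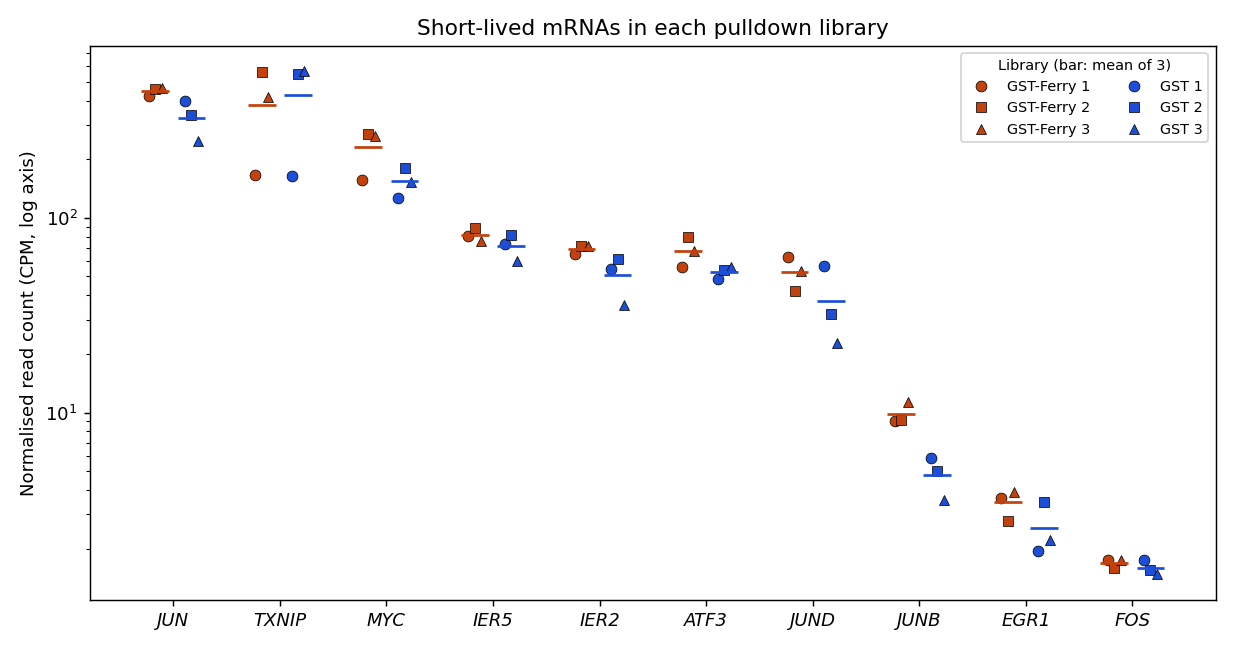
Normalised read count (CPM, log axis) of the 10 short-lived mRNAs, ordered by their mean with GST-Ferry, with 1 point per library, GST-Ferry left and GST right, and a bar at the mean of 3. JUN, JUNB, IER2 and ATF3 have every GST-Ferry library above every GST library, and TXNIP is low in the libraries numbered 1 of both baits.

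Within the AP-1 family, JUN was the most abundant member and the most even on GST-Ferry. JUN (ENSG00000177606, chr1:58780788-58784327 of GRCh38, minus strand), which pairs with FOS proteins, had 424, 456 and 464 CPM in GST-Ferry 1, 2 and 3, against 397, 337 and 249 CPM in GST 1, 2 and 3. The groups did not overlap, the GST-Ferry libraries differed by at most 1.09-fold and the GST libraries by 1.6-fold. The log2 fold change was 0.45 ± 0.21 (SE; adjusted p = 0.264 by edgeR's quasi-likelihood test).

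JUNB had the largest fold change of the 10. JUNB (ENSG00000171223, chr19:12791496-12793315, plus strand), an AP-1 subunit that can also oppose JUN, had 9.07, 9.15 and 11.3 CPM with GST-Ferry, against 5.83, 5.01 and 3.54 CPM with GST. All GST-Ferry libraries lay above all GST libraries, from counts of 62, 23 and 26 with GST-Ferry and 60, 55 and 24 with GST. The log2 fold change was 1.01 ± 0.31 (adjusted p = 0.12 by edgeR's quasi-likelihood test), and across 19 refits that tested JUNB it ran from 0.63 to 1.16. JUNB lies within the span of HOOK2 on the opposite strand (chromosome 19), and the strand setting of the counting is not given in the sources used here. HOOK2 itself had 33.9 ± 2.63 CPM with GST-Ferry and 36.3 ± 14.6 CPM with GST (log2 fold change -0.11 ± 0.28).

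For JUND and FOS the libraries of both baits overlapped. JUND (ENSG00000130522, chr19:18279760-18281622, minus strand), the AP-1 subunit present in resting cells, had 62.9, 42.2 and 53.5 CPM with GST-Ferry, against 56.8, 32.3 and 22.7 CPM with GST, with a log2 fold change of 0.51 ± 0.30, and its lowest library was GST 3. FOS (ENSG00000170345, chr14:75278774-75282230, plus strand), the partner that turns on fastest after stimulation, had 1.76, 1.59 and 1.74 CPM with GST-Ferry, against 1.75, 1.55 and 1.47 CPM with GST. These FOS values rest on 12, 4 and 4 counts with GST-Ferry and 18, 17 and 10 with GST, and a difference was not detectable at this depth (log2 fold change 0.10 ± 0.44).

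Among EGR1, IER2 and IER5, the groups were apart for IER2 alone. IER2 (ENSG00000160888, chr19:13150415-13154908, plus strand), a nuclear regulator induced by serum, had 65, 72 and 71.8 CPM with GST-Ferry, against 54.9, 61.5 and 35.5 CPM with GST. Its groups did not overlap, although GST-Ferry 1 and GST 2 lay close together (log2 fold change 0.45 ± 0.22, adjusted p = 0.29 by edgeR's quasi-likelihood test). IER5 (ENSG00000162783, chr1:181088712-181092899, plus strand), the mRNA with the densest AU-rich stretch of the 10, had 80.9, 89.1 and 76.1 CPM with GST-Ferry, against 73.5, 81.3 and 60.3 CPM with GST, with overlap and a log2 fold change of 0.19 ± 0.20. EGR1 (ENSG00000120738, chr5:138465490-138469315, plus strand) had 3.66, 2.78 and 3.91 CPM with GST-Ferry, against 1.94, 3.46 and 2.21 CPM with GST, from 7 to 38 counts per library, with a log2 fold change of 0.44 ± 0.40. Without GST 1 EGR1 had 0.26 ± 0.48, and without GST 2 it had 0.73 ± 0.49. IER5 had 0.09 ± 0.24 without GST-Ferry 2 and 0.06 ± 0.16 without GST 3.

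MYC and ATF3 were higher in GST-Ferry 2 and 3 than in any other library. MYC (ENSG00000136997, chr8:127735434-127741434, plus strand) had 156, 270.1 and 264 CPM with GST-Ferry, against 127, 181 and 154 CPM with GST. GST-Ferry 1 lay inside the GST range and GST-Ferry 2 and 3 above it. The log2 fold change was 0.57 ± 0.24 (adjusted p = 0.22 by edgeR's quasi-likelihood test). ATF3 (ENSG00000162772, chr1:212565334-212620777, plus strand) had 55.9, 79.6 and 67.4 CPM with GST-Ferry, against 48.6, 53.8 and 55.8 CPM with GST, where GST-Ferry 1 and GST 3 had nearly the same level (log2 fold change 0.35 ± 0.20, adjusted p = 0.359 by edgeR's quasi-likelihood test). Without GST 3 and GST-Ferry 1 together, both passed edgeR's quasi-likelihood test, MYC with 0.79 (adjusted p = 0.00359) and ATF3 with 0.52 (adjusted p = 0.0353). For both mRNAs GST-Ferry 1 was the lowest GST-Ferry library, so leaving it out raises their GST-Ferry mean by construction. The pass is therefore no independent support for a difference. In that refit 2 of 9 members were called, beside 18% of all genes (2746 of 15242). GST-Ferry 1 was also the GST-Ferry library with the least bait subunit mRNA, with 798 CPM of PPP1R21 beside 18290 and 37618 CPM in GST-Ferry 2 and 3. The part of that difference in the MYC and ATF3 values was not tested.

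Counted over the list, 4 of 10 mRNAs (JUN, JUNB, IER2 and ATF3) had groups that did not overlap with GST-Ferry higher, beside 14.9% of all genes tested. No member had groups that did not overlap with GST-Ferry lower, beside 12.2% of all genes. Of 12859 tested protein-coding genes, the kind to which the members belong, 2239 had such groups with GST-Ferry higher and 1462 with GST-Ferry lower. Leaving out GST 3 could not make the groups of JUN, JUNB, IER2 and ATF3 overlap, and no other member joined them. Without GST 3, 22.5% of all genes had every GST-Ferry library above both remaining GST libraries.

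For the GC-rich members the distance between the baits moved with GST 3. Tested genes were split by the GC content of their transcript into 5 classes of equal size. In the class with the highest GC content (58.2% to 74.5%) the median level in GST 3 lay -0.62 on the log2 scale from the gene's mean over all libraries, and in the class with the lowest (26.7% to 41.2%) 0.52 from it. The median log2 fold change of these classes ran from -0.35 at the lowest GC content to 0.35 at the highest, and from -0.10 to 0.15 without GST 3. Of the 10 members 7 lay in the upper 2 classes, and JUND (69.7% GC), JUNB (64.9%) and IER2 (61.7%) in the highest.

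Each of these 3 GC-rich mRNAs, and JUN, FOS and IER5, had its lowest GST level in GST 3. Relative to the mean of GST 1 and GST 2, GST 3 had a log2 ratio of -0.97 for JUND, -0.71 for IER2, -0.62 for JUNB and -0.56 for JUN, and of 0.67 for TXNIP, the member with the least GC (43.9%). Across the 10 mRNAs, GC content and this ratio had a Pearson r of -0.89, as a description of 10 genes that share the same 3 libraries.

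**Figure D2:**
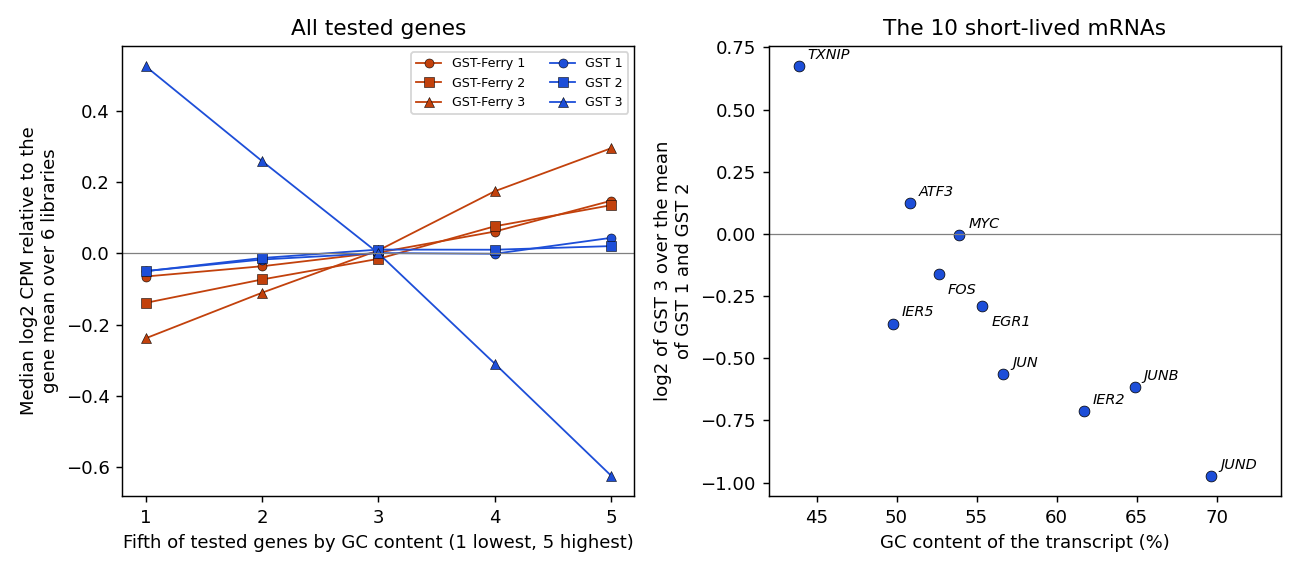
Left, median log2 CPM of all tested genes relative to each gene's mean over the 6 libraries, by class of GC content (5 classes), 1 line per library; GST 3 runs from 0.52 to -0.62, opposite to the other libraries. Right, GC content (%) of the 10 short-lived mRNAs against the log2 ratio of GST 3 to the mean of GST 1 and GST 2, with JUND at -0.97 and TXNIP at 0.67.

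Without GST 3 the median log2 fold change of the 10 mRNAs was 0.25, and with offsets that remove the dependence on GC content and transcript length in each library it was 0.22. All 10 had a fold change above 0 in both fits, but several lay within 1 SE of 0. Among these were FOS (0.02 ± 0.48 without GST 3 and 0.01 ± 0.41 with the offsets) and TXNIP (0.08 ± 0.43 and 0.03 ± 0.43). Over tested protein-coding genes the medians were 0.03 without GST 3 and 0.04 with the offsets, and the share above 0 was not counted. None of the 10 passed the test in either fit, beside 7.99% of all genes without GST 3 and 1.94% with the offsets. JUND had 0.24 ± 0.23 without GST 3 and 0.06 ± 0.18 with the offsets, IER2 had 0.23 ± 0.16 and 0.14 ± 0.14, and JUN 0.26 ± 0.18 and 0.25 ± 0.16. JUND moved the other way without GST 1, to 0.93 ± 0.27 (adjusted p = 0.0875 by edgeR's quasi-likelihood test). JUNB had 0.81 ± 0.29 without GST 3 (adjusted p = 0.0884 by edgeR's quasi-likelihood test) and 0.64 ± 0.26 with the offsets (adjusted p = 0.198). MYC, with 53.9% GC, had 0.54 ± 0.23 and 0.43 ± 0.21, and ATF3 0.36 ± 0.18 and 0.30 ± 0.17, each within 1 SE of its value over all libraries. ATF3 was more dependent on GST-Ferry 2, without which it had 0.18 ± 0.24.

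**Figure D3:**
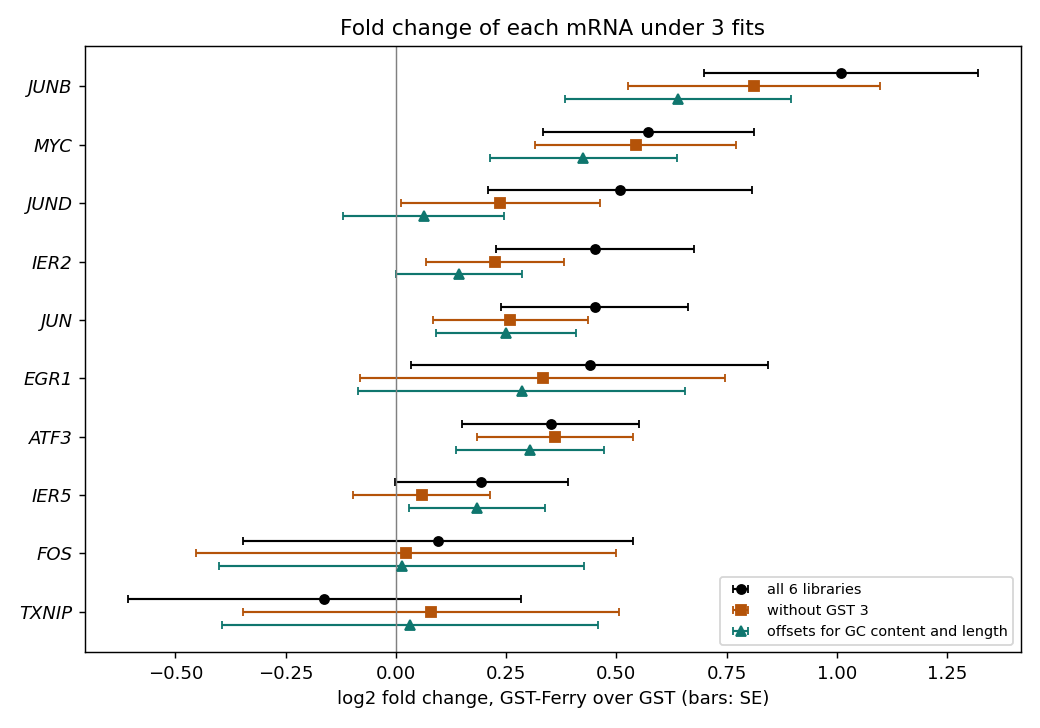
log2 fold change of GST-Ferry over GST for each mRNA, with its standard error, from all 6 libraries, without GST 3, and with per-library offsets for GC and length. JUND has 0.51 over all libraries and 0.06 with the offsets, and JUNB keeps the highest value in all 3 fits.

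Across the transcriptome, the number of ATTTA pentamers went together with GC content. Of 12859 tested protein-coding genes, 3477 with 6 or more pentamers in the 3' UTR had a median log2 fold change of -0.21, against 0.24 for 3547 with no pentamer, and their median GC contents were 41.3% and 57.9%. With the offsets for GC content and length these medians were 0.02 and 0.07. The 392 genes with at least 3 pentamers in 30 bases, among them IER5, had a median of -0.15, and of 0.01 with the offsets.

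JUN, JUNB, JUND, IER2 and IER5 are each made from a single exon in the transcript used here. Over the 342 tested protein-coding genes of this kind the median log2 fold change was 0.21, beside 0.02 for the 12517 with introns, and 0.17 beside 0.04 with the offsets. Of these 342 genes 37 carry histone names. Called enriched were 15 of the 342, beside 76 of the 12517 with introns, and none of the members. How many of the 15 carry histone names was not counted.

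TXNIP had its largest differences between library numbers and not between baits. TXNIP (ENSG00000265972, chr1:145992435-145996600, minus strand) had 167, 559 and 419.7 CPM in GST-Ferry 1, 2 and 3, against 164, 547 and 567 CPM in GST 1, 2 and 3. The libraries numbered 1 were low in both baits, with a ratio of library 2 to library 1 of 3.35 with GST-Ferry and 3.34 with GST. Between libraries of the same number the log2 difference of GST-Ferry over GST was 0.03, 0.03 and -0.43. The fit over all libraries gave -0.16 ± 0.45 (adjusted p = 0.869 by edgeR's quasi-likelihood test), and with the library number as a block it gave -0.12 ± 0.22 (adjusted p = 0.815).

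ARRDC4, the arrestin most closely related to TXNIP in its control by glucose through the MondoA and MLX transcription factors, was also lowest in the libraries numbered 1. ARRDC4 had 96.7, 355 and 319.7 CPM with GST-Ferry, against 96.5, 250.3 and 442 CPM with GST, and the Pearson r with TXNIP over the 6 libraries was 0.96. Other mRNAs had a higher r with TXNIP, among them NPM1 (0.99), RPLP1 (0.98) and RPL35 (0.98), though over a narrower range of levels. Of the 10980 genes averaging at least 10 CPM, 5 were at least 2-fold higher in libraries 2 and 3 than in library 1 of both baits. They were TXNIP, ARRDC4, the Kruppel-like factor KLF10, the small heat shock protein HSPB8 and the unnamed ENSG00000244313, all chosen after their values were seen. As many, 5, were at least 2-fold lower there, namely AMH, MT-ND6, MTND2P28, RNF32-AS1 and ZDHHC11. KLF10 had 20.5, 64.8 and 54.4 CPM with GST-Ferry, against 13.9, 41.1 and 58.3 CPM with GST. The labels do not say whether libraries of the same number share a lysate.

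**Figure D4:**
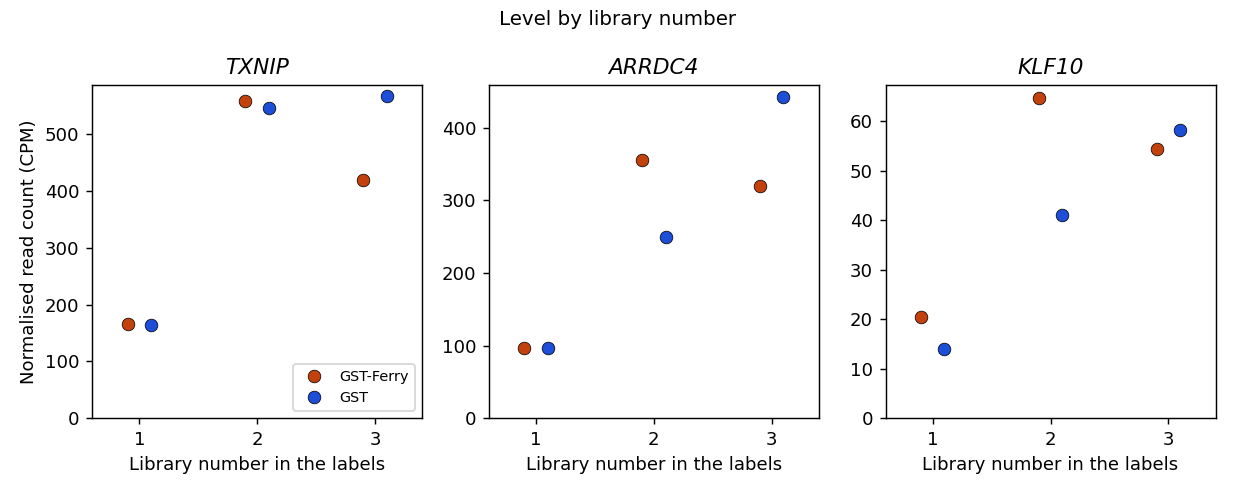
Normalised read count (CPM) of TXNIP, ARRDC4 and KLF10 by library number, GST-Ferry left and GST right at each number. All 3 mRNAs are lowest in library 1 of both baits, where TXNIP has 167 CPM with GST-Ferry and 164 CPM with GST.

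The promoters of TXNIP and ARRDC4 are shown because the levels of these mRNAs varied together and because MondoA and MLX bind paired E-box-like motifs. The motif searched was CACGNG on both strands, in capitals below, overlaps merged, in the RefSeq promoter windows (GRCh38.p14, 250 bases before to 50 after the start site). TXNIP is at chr1:145996530-145996829 (minus strand) and ARRDC4 at chr15:97960453-97960752 (plus strand).
TXNIP: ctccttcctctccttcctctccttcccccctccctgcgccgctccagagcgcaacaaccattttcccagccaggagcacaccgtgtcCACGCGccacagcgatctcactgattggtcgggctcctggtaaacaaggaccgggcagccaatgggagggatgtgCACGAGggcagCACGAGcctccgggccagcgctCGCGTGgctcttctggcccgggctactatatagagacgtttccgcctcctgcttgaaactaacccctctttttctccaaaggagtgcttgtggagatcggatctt
ARRDC4: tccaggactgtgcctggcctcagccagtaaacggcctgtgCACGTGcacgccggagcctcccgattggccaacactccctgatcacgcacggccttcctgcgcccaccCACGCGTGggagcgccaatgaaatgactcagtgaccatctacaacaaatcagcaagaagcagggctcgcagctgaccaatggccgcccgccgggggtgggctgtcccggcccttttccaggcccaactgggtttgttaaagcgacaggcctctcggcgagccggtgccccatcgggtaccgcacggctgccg

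The TXNIP window holds 4 copies and the ARRDC4 window 3, of which 1 is CACGTG, and 30.5% of 35116 promoter windows hold at least 1. A direct pair of copies spaced by 5 bases occurs in the TXNIP window and in 0.057% of all windows, and was not found in these letters of ARRDC4. The mRNAs of MondoA itself and of MLX did not pass the test between the baits, which does not compare library numbers. MLXIP, which encodes MondoA, had 148, 121 and 152 CPM with GST-Ferry, against 129, 114 and 93.8 CPM with GST. MLX had 49.5, 72 and 71.8 CPM with GST-Ferry, against 52.1, 67.1 and 84.6 CPM with GST. MLX was thus lowest in library 1 of both baits, and MLXIP was not. The part of either factor in the TXNIP and ARRDC4 levels was not tested.

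Of 45 other immediate-early genes listed, 38 were tested, and 30 of them had a log2 fold change above 0 and 8 below. Over all genes tested 47.8% lay above 0. The median of the 38 was 0.35, beside -0.03 over all genes. None was called by edgeR's quasi-likelihood test over all genes (8 of 38 at an unadjusted p under 0.05, near the 19.3% of all genes). In 10 of 38 the groups did not overlap with GST-Ferry higher, beside 14.9% of all genes, and in 0 with GST-Ferry lower, beside 12.2%. Among 12859 tested protein-coding genes these counts were 2239 and 1462. The list's median was not computed with the offsets for GC content and length, or without the GST library that stood apart. The part of GC content in the values of this list was therefore not tested. By the mean over all 6 libraries, the most abundant of the 38 was the anti-apoptotic MCL1, with 158 ± 9.03 CPM with GST-Ferry and 143 ± 28.2 CPM with GST. Chosen after their values were seen, the orphan nuclear receptor NR4A1 had 20.2, 19.9 and 23 CPM with GST-Ferry, against 12.6, 13 and 7.07 CPM with GST (log2 fold change 0.93 ± 0.27). The small GTPase RHOB, which resides on endosomes, had 126, 204 and 194 CPM with GST-Ferry, against 93.3, 98.2 and 129 CPM with GST (0.71 ± 0.23).

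No gene was called by edgeR's quasi-likelihood test in any of the 6 lists of relatives and regulators either. An unadjusted p under 0.05 was reached by 4 of 14 bZIP relatives, 5 of 12 stress response genes and 1 of 12 MYC network genes. It was reached by 3 of 7 SRF genes, 5 of 17 decay factors and 2 of 6 alpha-arrestin and thioredoxin genes, beside 19.3% of all genes. For the counts above 0 that follow, the share over all genes tested was 47.8%. The 14 tested bZIP relatives of AP-1 had a median of 0.10 on the log2 scale, 8 of them above 0, and their most abundant mRNA, ATF4, had 336 ± 77.3 CPM with GST-Ferry and 315 ± 68.6 CPM with GST. Among 12 genes of the integrated stress response, in which ATF4 induces ATF3, the median was 0.25, with 7 above 0. The pseudokinase TRIB3 had 24.1, 37.8 and 43.9 CPM with GST-Ferry, against 16.7, 16.9 and 15 CPM with GST (1.09 ± 0.25, adjusted p = 0.062 by edgeR's quasi-likelihood test). The asparagine synthetase ASNS, a target of the same factor, had 9.96 ± 1.44 CPM with GST-Ferry and 18.7 ± 3.46 CPM with GST (-0.88 ± 0.26), and both were chosen after their values were seen.

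The 12 genes of the MYC network had a median of -0.11, with 5 above 0, and MGA, a MAX partner, had 247 ± 8.85 CPM with GST-Ferry and 287 ± 33.3 CPM with GST. SRF and its cofactors, which drive the FOS and EGR1 promoters, had a median of 0.10 over 7 genes, 4 of them above 0, and HSF1, the heat shock factor listed with them, had 132 ± 15.2 CPM with GST-Ferry and 88.4 ± 21.9 CPM with GST. The 17 AU-rich element binding and decay factors had a median of -0.15, with 6 above 0, and CNOT1, the scaffold of the CCR4-NOT deadenylase, had 443 ± 20.2 CPM with GST-Ferry and 467 ± 80.9 CPM with GST. The 6 alpha-arrestin and thioredoxin genes had a median of 0.49, with 4 above 0, and TXN, the thioredoxin that TXNIP binds, had 318 ± 77.3 CPM with GST-Ferry and 224 ± 94.5 CPM with GST.

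Among genes that are no members, the 3 whose level over the 6 libraries was most like the mean profile of the 10 mRNAs were the transcriptional corepressor DRAP1, MEA1 and TMEM198, each with a Pearson r of 0.995 or more among 10473 candidates. DRAP1 had 31.7, 48.5 and 51.3 CPM with GST-Ferry, against 19.3, 27.2 and 14 CPM with GST. The mean profile of the 10 mRNAs was 0.03, 0.27 and 0.30 in GST-Ferry 1, 2 and 3 and -0.22, -0.02 and -0.35 in GST 1, 2 and 3, in log2 units around the mean of all libraries.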

How the data were processed

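The authors deposited raw read counts per gene for 60676 Ensembl gene IDs in 6 libraries. STAR 2.5.2b, bcl2fastq 2.19.1 and the build GRCh38.p13 are named, per the submitters' processing notes; the counting program, annotation release and strand setting are not given in the sources used here. The strand-specific libraries came from rRNA-depleted RNA, per the labels' protocols. Members and lists were chosen with earlier results of these data known. Symbols came from a gene name table (60594 IDs matched) and gene types and transcripts from GENCODE 29; length, GC content and 3' UTR are those of the longest complete APPRIS transcript. Genes were filtered with filterByExpr (minimum count 10, minimum total 15), scaled with TMM factors (0.923 to 1.1) and tested with edgeR 4.0.16 (R 4.3.3), quasi-likelihood, two-sided, with Benjamini-Hochberg adjustment over all genes and a threshold of 0.05. The procedure was run on simulated counts that held no trend with GC content and no library that stood apart. That run therefore gives no error rate for these data. Normalised read counts are CPM over the scaled totals of tested genes; profiles over libraries use log2(CPM + 0.5). A floor of 3 counts was 0.273 to 1.3 CPM, covering counting error only. Alternatives used limma 3.58.1 and DESeq2 1.42.0, other scalings and filters, a block, offsets for GC content and length, thinning to 2454538 counts and libraries left out. From each list the called genes, or else the most abundant, are named; any other choice is marked. Nothing in the labels ties replicates to separate cultures: the p-values cover the spread among these samples only, and that spread may be technical. No pair of same-bait libraries was a duplicate (chi-square over degrees of freedom 4.43 to 50.3). Figures were drawn with matplotlib 3.10.9.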

Additional observations from a re-analysis of the deposited data

How the results depend on the processing

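The count of members called was 0 in the reported fit and in 19 of 21 alternatives. Among these, DESeq2 could call only 7 members, and a filter at a mean of at least 10 CPM tested only 7, without FOS, EGR1 and JUNB. The count was 2 with limma-voom and library weights (JUNB, adjusted p = 0.0195, and MYC, adjusted p = 0.0155) and 2 without GST 3 and GST-Ferry 1 together. Those called in the latter refit, MYC and ATF3, had their lowest GST-Ferry level in GST-Ferry 1. The median log2 fold change of the members stayed above 0 in all 20 alternatives that give one. It moved by more than the spread between libraries with offsets for GC content and length (0.22) and without GST 3 (0.25). It also did so with these offsets and the replicate block (0.23, chosen after seeing the data). Among the refits without 1 library it ran from 0.25 to 0.44, and only the one without GST 3 moved by more than that spread. Of 191 member values with an adjusted p under alternatives, 179 kept their direction and their side of the threshold. TXNIP turned above 0 with library weights (0.39), with the offsets (0.0329, and 0.036 with the block too), without GST-Ferry 1, GST 2 or GST 3 (0.20, 0.04 and 0.08) and with GST 3 and GST-Ferry 1 both left out (0.46), its range without 1 library being -0.58 to 0.20, and FOS was -0.0089 with the offsets and the block. DESeq2 gave no adjusted p for FOS, EGR1 and JUNB. Over all genes the count called was 97. It was 11 with RLE size factors, 7 with library sizes alone, 744 with no filter, 0 at a threshold of 0.01, 711 with DESeq2, 14 with limma-voom, 2548 with library weights, 299 with the offsets, 1199 with the offsets and the block, 2746 without GST 3 and GST-Ferry 1 together, and 0 to 1259 without 1 library (0 without GST-Ferry 2, 3 without GST-Ferry 3, 3 without GST 2, 1259 without GST 3). The causes were not tested. With the replicate number as a block it was 180. Deviations of same-numbered libraries had r = 0.24, 0.08 and -0.15, beside -0.27 to 0.20 for libraries of unlike number. The numbers were therefore not taken to pair the samples, and the same-number differences given for TXNIP are a description. The block changed no call among the members. FOS (65 counts in all), EGR1 (114) and JUNB (250) are limited by depth, and thinning to equal depth left 8 members tested.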

Other observations

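Over the 6 libraries, the genes most like TXNIP, chosen after its values were seen, were the nucleolar protein NPM1 and the ribosomal protein mRNAs RPLP1 and RPL35, with Pearson r of 0.99, 0.98 and 0.98 among 10473 candidates, as a description of 6 libraries. Their range was far narrower than that of TXNIP: NPM1 had 917, 1368 and 1186 CPM in GST-Ferry 1, 2 and 3, against 926, 1262 and 1323 CPM in GST 1, 2 and 3. The ratio of library 2 to library 1 was 1.49 with GST-Ferry and 1.36 with GST for NPM1, beside 3.35 and 3.34 for TXNIP. The genes most like JUN were the cell cycle factor E2F1, the kinase STK40 and the glycogen synthase GYS1. E2F1 had 92.3, 99.4 and 102 CPM with GST-Ferry, against 87.7, 71.1 and 46.1 CPM with GST.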
